A study of Arabidopsis thaliana with 22 samples.

Results

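The genes trnD, trnY and trnE form a short cluster of transfer RNA genes in the plastid genome of Arabidopsis thaliana, and they are 3 of the 112 plastid genes measured. They were chosen by name and position: on the plastid chromosome (Pltd) of the TAIR10 build, trnD (ArthCt095) occupies positions 29801 to 29874, trnE (ArthCt097) positions 30466 to 30538, and trnY (ArthCt096) between them. With 300 bp on each side the locus spans positions 29501 to 30838, or 1338 bp. All 3 genes are annotated as transfer RNA genes, and the spacers between them hold no annotated gene. Signal comes from ptATAC-seq. In this assay Tn5, a transposase, attaches adapters where it can reach the DNA, and the deposited table counts these events at every plastid position.

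The chloroplasts were from leaves of 14 day old wild type plants of ecotype Col0, grown with 16 h of light and 8 h of dark. The labels sort the libraries into a nucleoid fraction, which is plastid DNA with its bound proteins, and a naked plastid DNA fraction, which gives the background of Tn5 on bare DNA; the comparison asks where the bound DNA is more or less open. Each fraction has 11 numbered replicates. The labels give both fractions the same text on fixation (4% formaldehyde for 4 h) and do not say how the naked DNA was made. Nothing says that replicates came from separate plants, so p-values measure the spread between these libraries, which may be technical.

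Transfer RNAs carry amino acids to the ribosome: the product of trnD carries aspartate, that of trnY tyrosine and that of trnE glutamate. The trnE product has another role, since its bound glutamate is the starting material from which the chloroplast makes chlorophyll and heme. In land plants the genes are transcribed together, with trnE first, by the RNA polymerase that the plastid genome itself encodes.

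Nucleoid replicates 9 and 10 held equal counts at 100% of positions and were counted as 1 sample, leaving 10 nucleoid and 11 naked libraries. Total counts ran from 202725 to 1813905 in nucleoid libraries and from 105763 to 1195649 in naked libraries. Of the libraries with more than 600000 counts, called deep here, 8 were nucleoid and 5 naked, while 2 nucleoid and 6 naked libraries were shallower. Depth therefore differed between the fractions, and values among deep libraries are given beside the results.

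All 3 genes had less signal in nucleoids than in naked DNA, while the long spacer and the flank before trnD stayed close to equal. Signal is the mean count per position as a percent of the same library's genome mean, so that 100 is the genome mean. The naked mean was 1.72 times the nucleoid mean at trnD, 1.49 times at trnY and 1.82 times at trnE. In the fit across all 112 genes (limma on log2(signal + 1), two-sided, Benjamini-Hochberg adjusted p under 0.05), all 3 were called lower in nucleoids, against 24.1% of all genes, with 9.82% called higher. Fold changes below are differences on that log2 scale, nucleoid minus naked.

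At trnD, signal was 74.5 in the lowest nucleoid library, 94.2 at the median and 113 in the highest. Naked libraries ran from 113 through a median of 167 to 209. No gene of the cluster separated the fractions in all libraries, as 0.893% of all genes did. At trnD the groups overlapped only at their edges, since 9 of 10 nucleoid libraries lay below the lowest naked library and nucleoid replicate 11 was just above it. The log2 fold change was -0.75 (SE 0.12, limma adjusted p = 0.0001). Among deep libraries the fractions did not overlap at trnD, which was true of 3.57% of all genes. The change there was smaller (-0.46) but past the threshold, as it was for 12.5% of all genes in the lower direction.

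At trnY, nucleoid signal ran from 88.2 through a median of 104 to 125, and naked signal from 115 through 153 to 198. The groups overlapped, with 8 of 10 nucleoid libraries below the lowest naked library and all 10 below the naked median. The log2 fold change was -0.56 (SE 0.10, limma adjusted p = 0.000485). It was -0.37 among deep libraries and still past the threshold, though the fractions overlapped there too.

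At trnE, nucleoid signal ran from 73.5 through a median of 91.5 to 159, and naked signal from 104 through 170 to 270. Here the overlap was wider, with 8 of 10 nucleoid libraries below the lowest naked library. Nucleoid replicate 11 stood at 159, inside the naked range, as did the next highest nucleoid library at 111. The log2 fold change was -0.83 (SE 0.16, limma adjusted p = 0.000607). It was -0.84 with replicate 11 of both fractions left out, and naked replicate 11 was the highest naked library (270). Nucleoid replicate 11 was not left out alone. Among deep libraries the log2 fold change was -0.52, past the threshold, though the fractions overlapped there too.

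The genes are short, at 74, 84 and 73 bp, and the shallowest naked library held 94, 95 and 98 counts in trnD, trnY and trnE. With 50 bp added on each side the changes were -0.50 at trnD, -0.31 at trnY and -0.47 at trnE, each still past the threshold, where 15.2% of all genes were called lower.

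**Figure D1:**
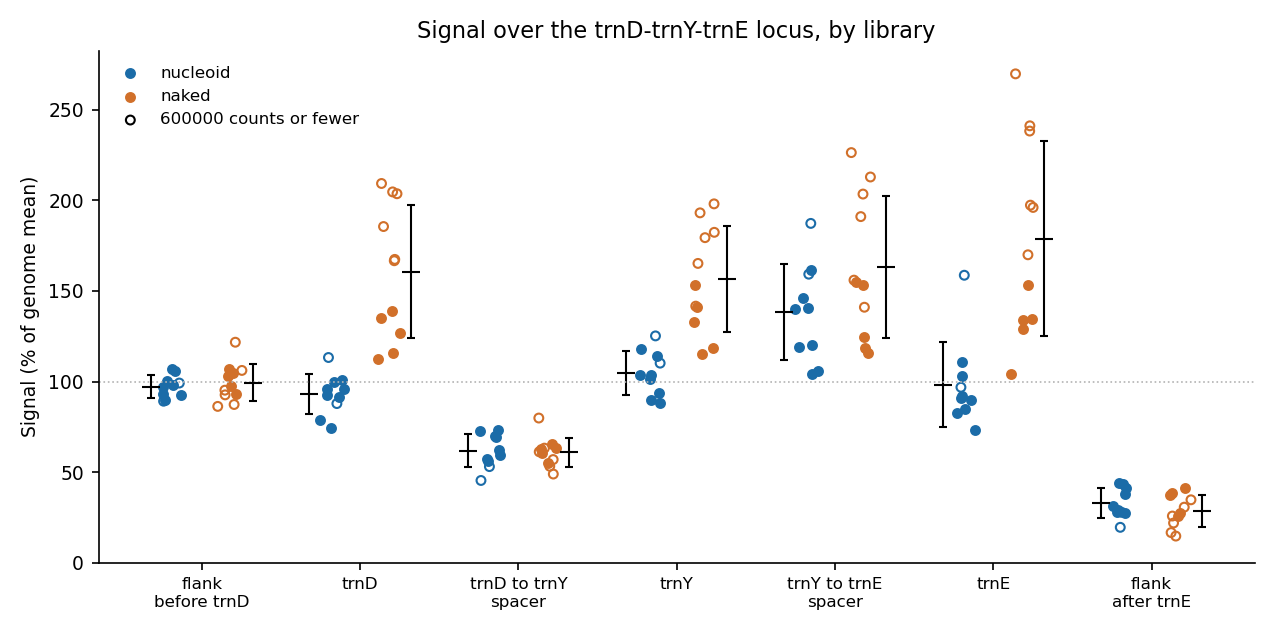
Signal (percent of the genome mean, y axis) in each library over the genes, spacers and 300 bp flanks of the locus. Points are libraries (open circles at 600000 counts or fewer), and black bars are the mean and SD of 10 nucleoid and 11 naked libraries; at the genes most nucleoid libraries lie below the lowest naked library, while at the long spacer both means lie near 61 to 62.

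The spread of the naked libraries went with their depth and also with their replicate numbers. The deep naked libraries were replicates 1 to 5 and the shallower ones replicates 6 to 11. Depth and replicate number therefore cannot be told apart here. Among the shallower ones depth did not order the signal. At trnD naked replicate 9 (527624 counts) held 209 and naked replicate 6 (105763 counts) held 186. At trnD the deep naked libraries held 113 to 139 and the shallower ones 167 to 209, with no overlap between these sets. At trnE the deep naked libraries held 104 to 153, below all of the shallower ones at 170 to 270. Signal at trnY was 115 to 153 in deep and 142 to 198 in shallower naked libraries, which overlapped. The 2 shallower nucleoid libraries held 87.9 and 113 at trnD, 110 and 125 at trnY, and 96.9 and 159 at trnE, in each case below the lowest shallower naked library. With log2 depth in the model the log2 fold changes were -0.60, -0.45 and -0.58 for trnD, trnY and trnE, all past the threshold, against 17% of all genes called lower. The part of depth in the size of the changes was not otherwise tested.

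**Figure D2:**
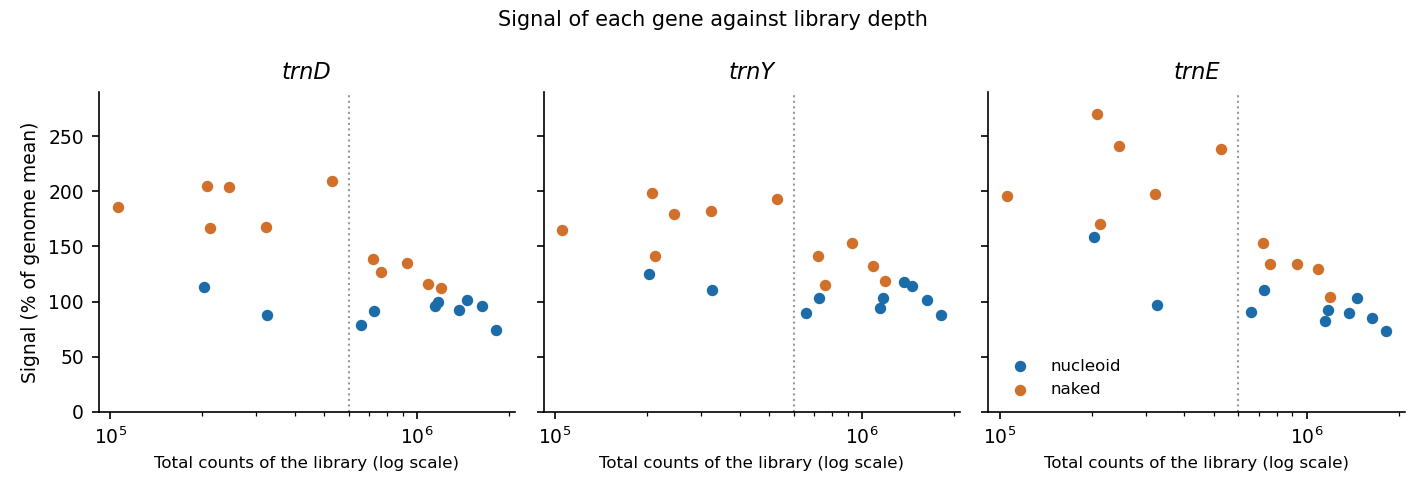
Signal of trnD, trnY and trnE (percent of the genome mean, y axis) against the total counts of each library (x axis, log scale); the dotted line marks 600000 counts. Naked libraries above the line have lower signal at trnD and trnE than those below it, and most nucleoid libraries lie lower than naked libraries of like depth.

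The long spacer of the cluster had near equal means in the fractions, and the short one did not pass the threshold. The 448 bp between trnD and trnY held 61.9 ± 9.2 in nucleoids (SD, n = 10) and 61.0 ± 8.0 in naked DNA (SD, n = 11). Its log2 fold change was 0.02 (SE 0.09, limma adjusted p = 0.882) in a fit over the 106 spacers of the genome, of which 22.6% were called in either direction, 4.72% lower and 17.9% higher. The 59 bp between trnY and trnE held 138 ± 27 and 163 ± 39, and the difference of -0.22 on the log2 scale was not past the threshold (SE 0.13, limma adjusted p = 0.153). The 300 bp before trnD held 97.2 ± 6.2 in nucleoids and 99.5 ± 10.3 in naked DNA. The 300 bp after trnE were poor in signal in both fractions, at 33.0 ± 8.2 and 28.6 ± 8.9.

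Each gene was then set against its own surroundings, as the log2 ratio of its signal to that of the 300 bp on each side in the same library. The 3 genes were again called lower in nucleoids, against 33% of all genes in this fit. The same held for 15 of the 27 transfer RNA genes outside the cluster, and 0 of the 27 rose past the threshold. Their median log2 difference was -0.27, and trnQ (-1.04) and trnC (-1.06) lay below all 3 members. From the lowest value, trnD ranked 4, trnE 6 and trnY 20 of 112, so a drop against flanks was not particular to the cluster. For trnD the log2 difference was -0.78 (SE 0.14, limma adjusted p = 0.00043), and for trnE it was -0.64 (SE 0.14, limma adjusted p = 0.00192). For trnY it was -0.34 (SE 0.09, limma adjusted p = 0.00602). The flanks of trnY take in trnE, and those of trnE take in trnY, so these values and ranks are not against gene-free surroundings. Among deep libraries trnD (-0.47) and trnE (-0.44) passed, both with an adjusted p of 0.0167, and trnY did not (-0.30, limma adjusted p = 0.0507). With flanks of 100 bp, which still take in part of trnE, the value for trnY was -0.14 (limma adjusted p = 0.0342).

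In steps of 25 bp, 6 of the 10 steps called lower lay mostly inside the genes, and the change was uneven along them. Of 54 steps over the locus 53 had enough counts to test, and 10 were called lower and 8 higher in nucleoids in a fit over all 6091 steps of the genome. Across the genome 12.6% of steps were called lower and 22.4% higher, so the locus as a whole (34% called in either direction, against 35%) was near the background. Within the genes the count was larger: of 9 steps with most of their bases in a gene 6 were lower and 0 higher, while of the other 44 steps 4 were lower and 8 higher. Over the whole genome, 14.5% of steps in genes were called lower.

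The 3 largest decreases were in trnD and trnE. Positions 30476 to 30500 in trnE held 43.5 ± 11.4 in nucleoids (SD, n = 10) and 101 ± 30 in naked DNA (SD, n = 11), which differed by -1.18 on the log2 scale (SE 0.17, limma adjusted p = 0.000323). Positions 29826 to 29850 in trnD held 68.0 ± 14.9 and 152 ± 34 (-1.15, SE 0.14, limma adjusted p = 0.000157). Here every nucleoid library (42.6 to 84.3) lay below every naked library (112 to 208), as was the case at 1.17% of steps of the genome. Positions 29801 to 29825, the first 25 bases of trnD by number, held 93.8 ± 23.1 and 203 ± 73 (-1.06, SE 0.19, limma adjusted p = 0.000721). The next step of trnD, positions 29851 to 29875, held 115 ± 10 and 121 ± 19 and did not pass (-0.06, limma adjusted p = 0.576).

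The other genes showed the same unevenness. In trnY the step at positions 30376 to 30400 fell by 0.95 on the log2 scale (limma adjusted p = 0.000157), and its libraries did not overlap either (69.3 to 125 in nucleoids, 138 to 232 in naked DNA). The step just before it, at positions 30351 to 30375 of the same gene, held 113 ± 19 and 128 ± 29 and did not pass (-0.17, limma adjusted p = 0.287). The highest naked signal of the locus was at positions 30451 to 30475, which hold the end of the trnY to trnE spacer and 10 bases of trnE. There naked DNA held 312 ± 102 and nucleoids 148 ± 31 (-1.02, SE 0.17, limma adjusted p = 0.000469). In the middle of trnE, positions 30501 to 30525 held 146 ± 59 and 197 ± 68, which did not pass (-0.42, limma adjusted p = 0.102).

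Outside the genes, 1 further step lay next to trnD: positions 29751 to 29775, 26 to 50 bp before it, fell by 0.72 on the log2 scale (71.3 ± 14.9 against 119 ± 34, limma adjusted p = 0.00354). The other steps called lower outside genes were at positions 30226 to 30250 (-0.26) and 30401 to 30425 (-0.30), the latter holding the last 6 bases of trnY. Among deep libraries 5 of the 9 gene steps were called lower, against 8.03% of all steps, and with log2 depth in the model 6 were, against 10.5%. Of the 44 steps mostly outside genes 3 were called lower among deep libraries, 9 with log2 depth in the model (15 lower in the whole locus) and 7 with each library scaled to its median.

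**Figure D3:**
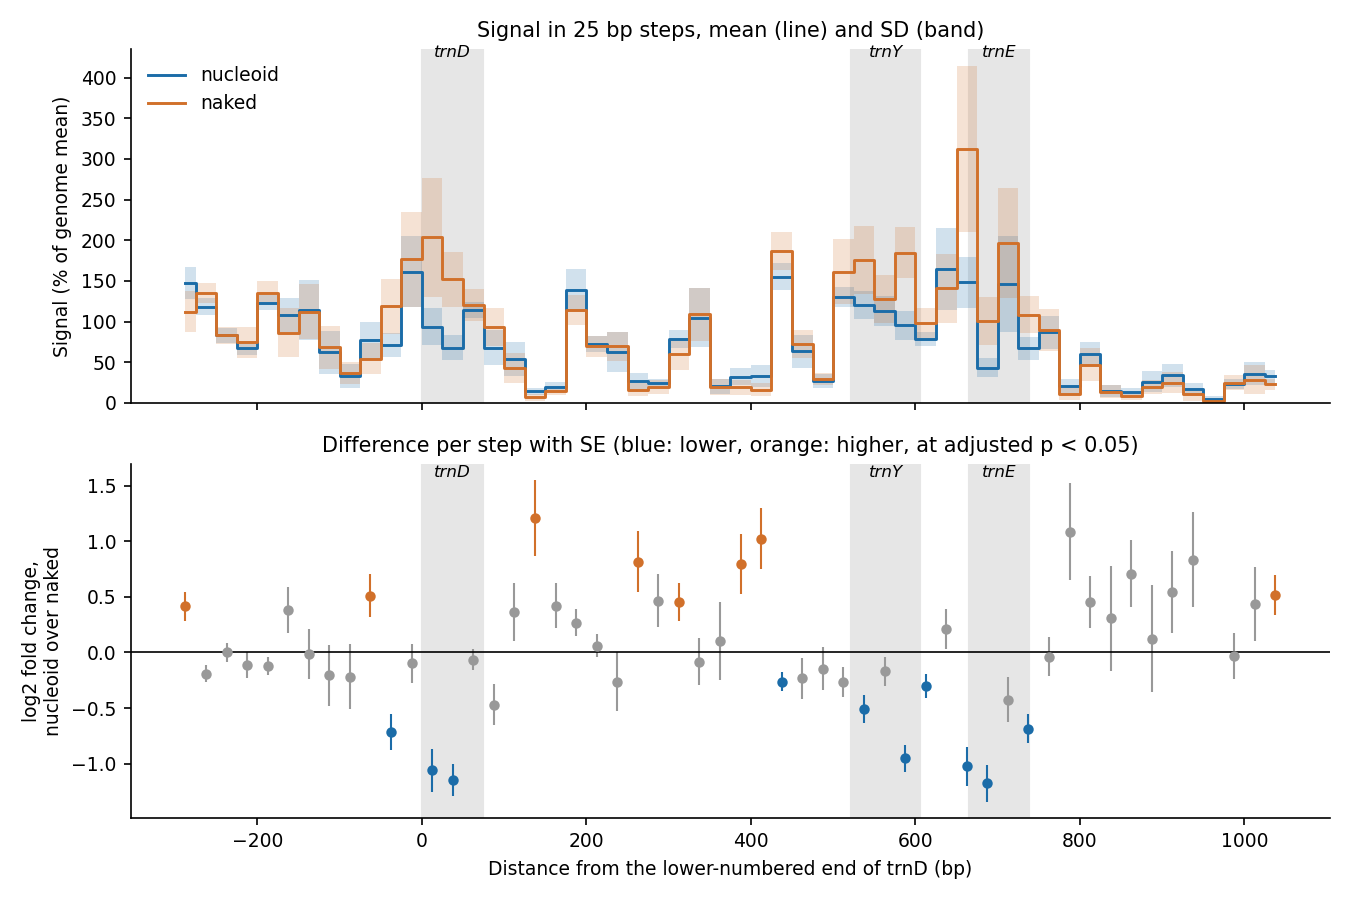
Upper panel, signal in 25 bp steps (percent of the genome mean) as the mean and SD of 10 nucleoid and 11 naked libraries along the locus; lower panel, the log2 fold change of each tested step with its SE. Grey bars mark the genes; of 10 steps called lower 6 lie mostly in the genes and 4 mostly outside, and the 8 called higher lie outside.

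The steps called higher in nucleoids lay outside the genes, 5 of them in the long spacer, mostly where signal was low. Positions 29926 to 29950 held 14.5 ± 4.4 in nucleoids and 6.74 ± 3.95 in naked DNA, a difference of 1.21 on the log2 scale (SE 0.34, limma adjusted p = 0.0126), with as few as 0 counts in a library. Positions 30201 to 30225 held 33.0 ± 13.9 and 16.2 ± 8.2 (1.02, SE 0.27, limma adjusted p = 0.00857). Positions 30576 to 30600, after trnE, held 20.7 ± 9.2 and 11.3 ± 8.0 and did not pass (1.08, SE 0.44, limma adjusted p = 0.0567). These calls depended on depth, scaling and the replicate numbers kept. Steps of the locus called higher numbered 4 among deep libraries (11.1% over the genome) and 0 with log2 depth in the model (10.3%). A replicate number was left out in both fractions at once where both had it. They numbered 3 without replicate number 7 or 8, and 5 without number 2, 4, 6, 9 or 10. Shares over the genome are not given for these runs. With each library scaled to its median 3 steps of the locus were called higher and 13 lower (14.3% and 16% over the genome). Of the calls in the locus 18.8% were then higher, against 44.4% with the genome mean. Of the calls over the whole genome 47.2% were higher with median scaling and 64% with the genome mean. Of the 9 gene steps 6 were called lower under either scaling.

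Steps of 10 bp, chosen after the 25 bp steps were seen, gave a finer view. Of 23 steps mostly within a gene 18 were called lower and 0 higher, where 13.3% of tested steps of the genome were lower and 19.4% higher. Of 83 tested steps mostly outside genes 6 were lower and 12 higher. The lower ones were at positions 29601 to 29610 (-0.38), 29671 to 29680 (-0.63), 29751 to 29770 (-0.72 and -0.75), 30451 to 30460 (-0.58) and 30461 to 30470. In trnD the 6 steps from positions 29801 to 29860 were all lower, with log2 fold changes from -1.31 to -0.58, and the next, 29861 to 29870, was not (0.23, limma adjusted p = 0.123). The step across the end of trnD, 29871 to 29880, was called higher (0.49, limma adjusted p = 0.0203). In trnE the largest decrease was at positions 30471 to 30480 (92.4 ± 22.6 against 244 ± 74, log2 fold change -1.37, limma adjusted p = 0.000183). The step across its lower-numbered edge, positions 30461 to 30470, was lower by a similar amount (-1.22, limma adjusted p = 0.000352). Both steps from 30481 to 30500 were lower as well (-1.16 and -1.10), those from 30501 to 30520 did not pass (-0.42 and -0.37), and those from 30521 to 30540 were again lower (-0.76 and -0.55). In trnY the decreases stood at the ends, at positions 30321 to 30350 (-0.69, -0.39 and -0.56) and 30371 to 30410 (-0.41, -1.01, -1.12 and -0.69). The 2 steps between, from 30351 to 30370, did not pass (-0.17 and -0.03).

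**Figure D4:**
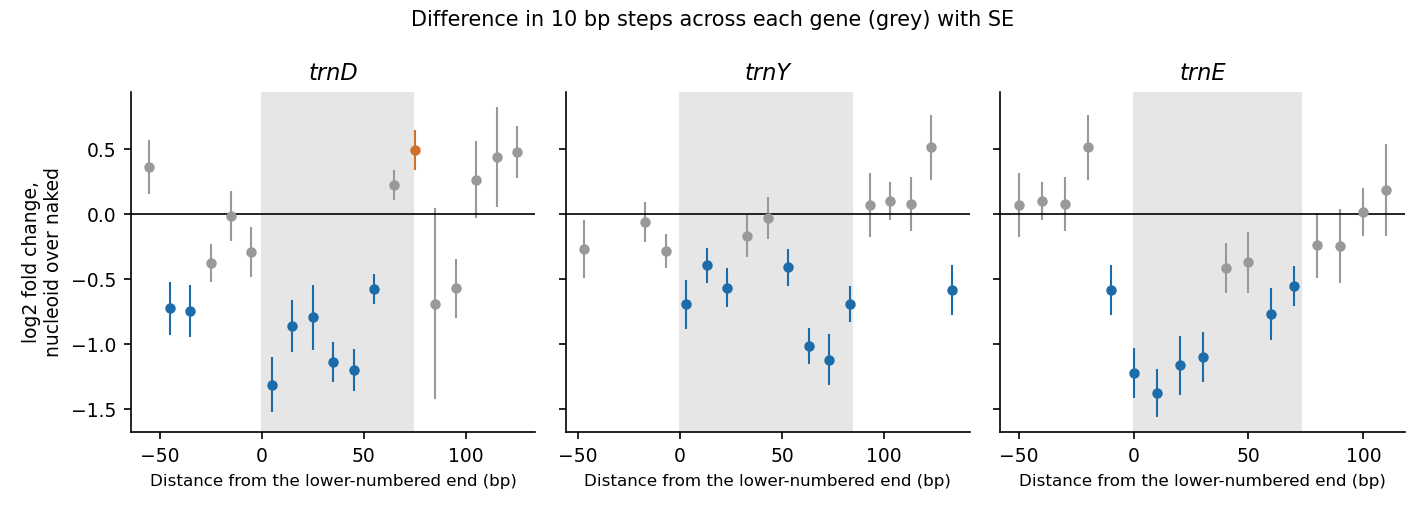
Log2 fold change, nucleoid over naked, with SE, in 10 bp steps across trnD, trnY and trnE (grey) and their edges; blue steps were called lower, orange higher, at an adjusted p under 0.05. The decreases fill 60 bases of trnD and lie at the ends of trnY.

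Over all libraries trnY was reduced less than the others, a difference that did not hold among deep libraries. The 3 pairs were compared within libraries, by two-sided permutation tests with p-values adjusted over the pairs. In naked DNA trnE exceeded trnY by 0.16 ± 0.22 on the log2 scale (SD, n = 11), and in nucleoids it was below trnY by 0.11 ± 0.21 (mean -0.11, SD, n = 10). The change between the fractions was -0.27 (SE 0.09, permutation p = 0.011, adjusted 0.0165), and in 9 of 10 nucleoid libraries this ratio was under the median of the naked ones. For trnY against trnD the change was 0.20 (SE 0.06, permutation p = 0.00486, adjusted 0.0146), with trnY higher than trnD in 9 of 10 nucleoid and 5 of 11 naked libraries. For trnE against trnD it was -0.07 (SE 0.08, permutation p = 0.358, adjusted 0.358), not past the threshold. Among deep libraries neither of the differences at trnY passed (-0.15 against trnE and 0.09 against trnD, exact permutation, adjusted p = 0.382 for both). Both calls were also lost with log2 depth in the model (-0.13 and 0.16, permutation, adjusted p = 0.111 and 0.0653).

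By level, the order in naked DNA was trnE at 179 ± 54, trnD at 161 ± 37 and trnY at 156 ± 29 (SD, n = 11). In nucleoids it was trnY at 105 ± 12, trnE at 98.3 ± 23.6 and trnD at 93.1 ± 11.1 (SD, n = 10). The means of neighbours in these orders differed by less than their spread between libraries. Within single naked libraries trnE exceeded trnD in 9 of 11 and trnD exceeded trnY in 6 of 11. Within single nucleoid libraries trnY exceeded trnE in 7 of 10 and trnE exceeded trnD in 5 of 10. Within the fractions the 3 genes moved together, with Pearson correlations of 0.86 to 0.90 over 21 libraries after each fraction was centred on its mean. These libraries share depth and scaling.

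Other transfer RNA genes gave the family background. Of the 27 others 14 were called lower and 0 higher in the gene fit, with a median log2 fold change of -0.29, against 0.10 over all 112 genes. Scaling each library to its median moved that median of all genes to -0.05 and left trnD, trnY and trnE at -0.91, -0.71 and -0.98, where 26.8% of all genes were called lower. In rank from the lowest fold change trnE was 3, trnD 4 and trnY 7 of 112. The genes below them were trnQ (ArthCt090, -0.96), a glutamine transfer RNA gene, and trnC (ArthCt094, -0.96), a cysteine one, and trnG (ArthCt116, glycine) was at -0.72. The other transfer RNA genes with the highest values were trnK (0.49), the other trnG (ArthCt092, 0.33) and trnW (0.25), none of them past the threshold. With 50 bp added on each side the count among the 27 was 6 lower and 1 higher (11.6% of all genes were called higher). It was 9 lower without replicate 6 of both fractions, a run for which the share over all genes is not given.

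**Figure D5:**
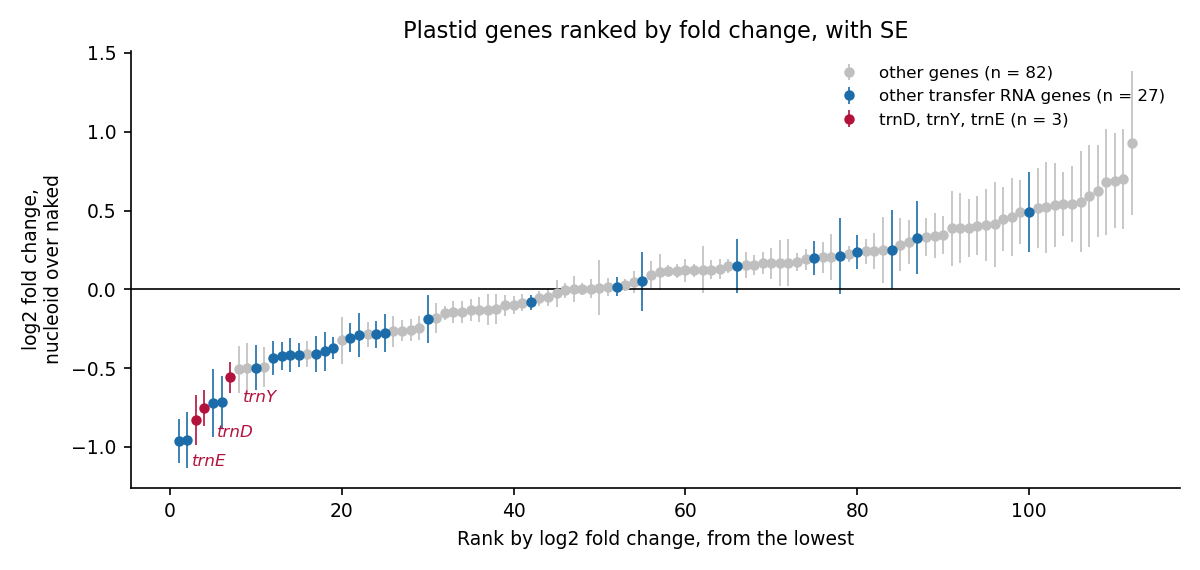
Log2 fold change, nucleoid over naked, with SE, of 112 plastid genes ranked from the lowest; trnE, trnD and trnY (red) rank 3, 4 and 7, and 27 other transfer RNA genes are blue. The 3 genes stand at the low end among other transfer RNA genes.

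The neighbours of the cluster were nearer to equal in signal, though not all of them against their own flanks. Before trnD lie petN and psbM, which encode small subunits of the cytochrome complex and of photosystem II. Signal at petN was 116 ± 5 in nucleoids and 117 ± 21 in naked DNA (log2 fold change 0.00, limma adjusted p = 0.971). At psbM it was 47.1 ± 7.9 and 36.9 ± 15.7 (0.45, limma adjusted p = 0.0922). After trnE lie trnT (ArthCt098), a threonine transfer RNA gene, and psbD, which encodes a reaction centre protein of photosystem II, and both were called lower. Signal at trnT was 69.5 ± 9.2 and 86.7 ± 15.0 (-0.31, limma adjusted p = 0.0156), and at psbD 118 ± 11 and 142 ± 18 (-0.26, limma adjusted p = 0.00684). Against its flanks trnT was at -0.49 (limma adjusted p = 0.025), lower than trnY (-0.34, with trnE in its flanks). In the same fit psbD was at -0.17 (limma adjusted p = 0.0308). In that fit petN (-0.27, limma adjusted p = 0.0822) and psbM (-0.004, limma adjusted p = 0.984) did not pass.

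Across libraries, with each fraction centred on its mean, the genes outside the cluster most like the mean of the 3 members were trnR (ArthCt127, r = 0.98), rrn23S (r = 0.97) and rrn16S (r = 0.96), over 21 libraries. These are genes for an arginine transfer RNA and for the large RNAs of both ribosomal subunits, and all lie in the inverted repeats, where counts of both copies were summed. The libraries share depth and genome scaling, so these correlations are a description only. Their own log2 fold changes were -0.72, -0.51 and -0.50.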

How the data were processed

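The authors deposited 1 table of whole-number counts for each position of the plastid genome (154477 positions, TAIR10 per the file headers) in 22 libraries, not scaled between libraries. The submitters' processing notes name Trim Galore 0.4.1, Bowtie2 2.2.8.9 and bedtools 2.25.0. Treatment of duplicates, the Tn5 offset and reads matching both repeats is not given in the sources used here; an offset would move edges by a few positions. Columns were matched by name, with 0 unmatched. The count model planned as an option was not used because the column names could not be read by the unit check.

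Gene limits came from a RefSeq table of assembly TAIR10.1. Counts in the repeats mirrored best at the axis of that table (238649, r = 0.92 over 2224 positions, next best of 1301 sums 0.36). Of 129 entries 112 genes remained after copies were merged. A minimum mean count of 10, after scaling to a common depth, left out 88 steps of 25 bp, 0 genes and 0 spacers (20 bp or longer). Fits used limma 3.58.1 in R 4.3.3, tested on simulated data, and permutation tests used 100000 resamples, or every arrangement where a group had under 10 libraries. A pseudocount of 1 was added to the percent. The members, lists and alternatives were chosen with earlier results of these data known. Named genes are the members, 2 neighbours on each side, the 3 genes most like the members, the 3 lowest and 3 highest other transfer RNA genes, and the 3 lowest and 3 highest steps.

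Replicate numbers were not taken as pairs. No sequence is printed, and counts of 94 to 98 in the shallowest library limit the precision of single genes.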

Additional observations from a re-analysis of the deposited data

Results flagged for a closer look

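Nucleoid replicate 11 stood apart from the other 9 nucleoid libraries at trnE, with a signal of 158.7 percent of the genome mean against 73.5 to 111 in the others. It was the only 1 of 13 values of the locus in which a nucleoid library lay this far out (Dixon's gap test, gap to the next library 0.56 of the whole range), where chance gives about 0.65 such values. The same library was the shallowest of the nucleoid fraction, with 202725 counts in all and 152 counts in trnE. It was also the highest nucleoid library at trnD and trnY.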

How the results depend on the processing

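Over 277 repeats of 15 results 250 kept their side of the threshold, or stayed within 1.5 times a count. Results past the threshold kept their direction, but the sign of results not called could change. The trnD to trnY spacer went from 0.02 to -0.14 with median scaling. Likewise trnE minus trnD went from -0.07 to 0.03 with log2 depth in the model. The changes at trnD, trnY and trnE stayed past the threshold in every alternative run, with log2 fold changes of -0.91 to -0.46, -0.71 to -0.31 and -0.98 to -0.47. Left-out replicate numbers gave -0.81 to -0.70, -0.62 to -0.52 and -0.88 to -0.77. Among deep libraries trnY against its flanks (-0.30), trnE minus trnY (-0.15) and trnY minus trnD (0.088) lost their calls. The latter differences also lost them with log2 depth in the model (-0.13 and 0.16) and without naked replicates 9 to 11 (-0.18 and 0.16). The cause was not tested.

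Steps of the locus called lower numbered 5 with 50 bp (11.5% over the genome) and 24 with 10 bp steps, which differ in number by construction. Steps called higher numbered 3 with median scaling, 4 among deep libraries, 0 with depth as a covariate, 5 without naked replicates 9 to 11, 0 with 50 bp steps (17.1% over the genome), and 3 to 10 with a replicate number left out (3 without replicate 7 or 8). Other transfer RNA genes called lower numbered 6, and higher 1, with 50 bp added on each side, and 9 to 15 lower with a replicate number left out. For runs with replicates left out no share over all steps or genes is given, so their counts have no background beside them.

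With the replicate number as a block, the trnY to trnE spacer was called lower (-0.20, limma adjusted p = 0.0211). Under that setting trnY minus trnD lost its call (0.18, exact permutation, adjusted p = 0.0703) and 13 steps of the locus were called higher. No share over the genome is given for this setting, so these calls have no background beside them. Same-numbered libraries correlated at -0.017 to 0.77 in their deviations, over 0.1 in 9 of 10 pairs, and 1 of 10 nucleoid libraries was most like its own number, so the numbers were not taken as pairs. Depth limits single steps: where signal is low, a library held 0 counts.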
